A study of Mus musculus with 24 samples.

Results

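The genes described here are 47 named genes of S phase and mitosis. They are listed by name for their role in DNA replication or cell division, and the list was drawn up with earlier results of these data known. All 47 were among the 15390 genes of the deposited table, and all 47 were among the 13272 that passed the filter on low values (a log2 CPM of 0 or more in at least 4 libraries). CPM is the tag count of a gene scaled to a common library total. By role, 9 members license replication origins, 5 supply nucleotides or repair uracil, 5 work at the replication fork, 3 are G1 or G1/S cyclins, 2 are proliferation markers on chromosomes, 6 belong to the mitotic cyclins, CDK1 and the anaphase-promoting complex, 7 are mitotic kinases or checkpoint genes, 3 build the centromere or kinetochore and 7 serve the spindle and cytokinesis. The S phase set holds 21 members and the G2/M set 25, with the cyclin gene Ccnd1 in neither.

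MC38 is a mouse colon carcinoma cell line. Control cells held 1 of 2 control guides, and Ado KO cells held 1 of 2 guides targeting Ado, the gene of a thiol dioxygenase, which gave 2 guide populations for each genotype. Cells of each population were untreated, or were given the inflammatory cytokine TNF for 1 h or for 6 h, and RNA was read by 3' tag sequencing in 24 libraries, with 4 libraries in every one of the 6 combinations of genotype with treatment. Whether the 2 replicates of a guide population and treatment were separate cultures, and whether a population was a clone or a pool, is not given in the sources used here, so the p-values reflect only how far these libraries spread, and that spread may be technical. Since every untreated library is the reference for both times, TNF at 6 h and time in culture cannot be told apart. Libraries are named by guide and replicate number, and values are given in the order 1-1, 1-2, 2-1 and 2-2.

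Cells prepare for S phase by loading the MCM helicase at origins and by making deoxynucleotides. Many of these genes are driven by E2F factors and repressed by the retinoblastoma protein until G1 cyclins and their kinases inactivate it. Genes of G2 and mitosis are switched on later, and many of them carry CCAAT boxes bound by NF-Y together with a short element, the cell cycle genes homology region (CHR), through which the DREAM and MuvB complexes act. The cyclin-dependent kinase inhibitor p21, encoded by Cdkn1a, restrains both sets.

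The promoters of 7 members called after TNF are shown, 6 that hold at least 1 of the motifs searched and that of Tk1, which holds none, so that both kinds can be read. RefSeq promoter sequences (GRCm38.p6, from 250 bases before to 50 bases after the start, strand of the gene, 5' to 3') were matched for 38 of the 47 members, taking the first entry of a gene. Capitals mark the CHR letters TTTGAA, the NF-Y letters CCAAT, and the E2F letters TTTGGCGC, TTTCCCGC, TTTCGCGC or TTTGCCGC, each on either strand.
Tk1, chr11:117825965-117826264, minus strand: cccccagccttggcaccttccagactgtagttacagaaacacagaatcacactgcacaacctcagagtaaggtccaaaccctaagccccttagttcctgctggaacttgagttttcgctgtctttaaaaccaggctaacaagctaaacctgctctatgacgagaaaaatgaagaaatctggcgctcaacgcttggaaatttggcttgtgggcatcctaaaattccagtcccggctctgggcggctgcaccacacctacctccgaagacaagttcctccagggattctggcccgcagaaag
Ccnb2, chr9:70421505-70421804, minus strand: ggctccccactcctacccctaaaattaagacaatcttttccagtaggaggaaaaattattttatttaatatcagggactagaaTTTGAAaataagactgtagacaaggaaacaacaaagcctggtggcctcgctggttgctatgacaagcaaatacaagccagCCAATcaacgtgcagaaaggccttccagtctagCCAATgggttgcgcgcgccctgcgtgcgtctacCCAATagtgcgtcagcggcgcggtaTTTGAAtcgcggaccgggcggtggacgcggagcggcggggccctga
Plk1, chr7:122159185-122159484, plus strand: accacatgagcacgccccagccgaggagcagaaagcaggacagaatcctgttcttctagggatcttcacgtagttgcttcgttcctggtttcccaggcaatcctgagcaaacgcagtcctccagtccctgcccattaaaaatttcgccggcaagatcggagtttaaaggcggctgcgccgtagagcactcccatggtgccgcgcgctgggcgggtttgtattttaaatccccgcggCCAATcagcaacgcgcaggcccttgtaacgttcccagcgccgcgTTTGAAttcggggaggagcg
Aurka, chr2:172370521-172370820, minus strand: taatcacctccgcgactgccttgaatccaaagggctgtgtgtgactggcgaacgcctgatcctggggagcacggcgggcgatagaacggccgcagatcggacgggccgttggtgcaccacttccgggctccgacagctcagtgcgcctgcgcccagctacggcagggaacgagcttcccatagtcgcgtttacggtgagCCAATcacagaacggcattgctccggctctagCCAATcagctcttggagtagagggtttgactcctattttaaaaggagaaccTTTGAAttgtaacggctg
Cdca8, chr4:124936868-124937167, minus strand: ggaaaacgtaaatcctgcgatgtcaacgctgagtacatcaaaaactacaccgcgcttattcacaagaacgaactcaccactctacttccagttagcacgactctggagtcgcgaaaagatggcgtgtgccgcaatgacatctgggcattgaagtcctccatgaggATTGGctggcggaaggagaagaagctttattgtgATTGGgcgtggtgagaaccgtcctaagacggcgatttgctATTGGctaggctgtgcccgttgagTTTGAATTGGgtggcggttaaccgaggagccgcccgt
Top2a, chr11:99024140-99024439, minus strand: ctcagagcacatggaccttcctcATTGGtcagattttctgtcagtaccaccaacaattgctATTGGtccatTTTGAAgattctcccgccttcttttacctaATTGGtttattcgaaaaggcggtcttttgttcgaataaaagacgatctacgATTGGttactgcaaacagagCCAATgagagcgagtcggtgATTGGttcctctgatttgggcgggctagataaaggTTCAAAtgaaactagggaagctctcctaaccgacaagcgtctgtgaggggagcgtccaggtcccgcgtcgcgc
Mcm7, chr5:138171834-138172133, minus strand: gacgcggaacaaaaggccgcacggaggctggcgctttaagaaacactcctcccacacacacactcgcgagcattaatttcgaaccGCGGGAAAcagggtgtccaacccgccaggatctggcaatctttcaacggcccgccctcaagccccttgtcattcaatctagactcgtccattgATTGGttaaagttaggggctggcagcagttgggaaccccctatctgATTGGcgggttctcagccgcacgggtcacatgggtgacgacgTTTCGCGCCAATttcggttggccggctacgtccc
In the Cdca8 promoter a CHR match and an NF-Y match share letters, and in the Mcm7 promoter an E2F match and an NF-Y match share letters. The CHR letters stood in 16 of 21 G2/M promoters (76.2%), in 2 of 17 S phase promoters (11.8%) and in 17.9% of 32851 RefSeq promoters of the same length. NF-Y letters stood in 19 of 21 G2/M promoters (90.5%), in 9 of 17 S phase promoters (52.9%) and in 37.4% of all. The E2F letters were rarer, with 1 of 21 (4.8%), 7 of 17 (41.2%) and 2.3% respectively. Tk1, Ccne1 and Ung held none of the 3 motifs in this window, and Ccnd1 had no entry. A match describes the letters and says nothing of whether a factor was bound.

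As a check of the treatment, the NF-kB target Nfkbia rose by 3.10 ± 0.08 (log2 difference ± SE) at 1 h and 2.99 ± 0.08 at 6 h in control cells, and by 3.13 ± 0.08 and 3.08 ± 0.08 in Ado KO cells. Ado tags lay between 5.01 and 5.37 log2 CPM in control libraries and between 5.00 and 5.53 in Ado KO libraries, and the genotypes did not differ in a called way in untreated cells (0.09 ± 0.11, adjusted p 0.889). A 3' tag need not report an edit elsewhere in a gene, so this level does not check the knockout label. Of the epithelial marker list 3 of 8 genes were in the table and 1 reached 0 log2 CPM in 4 libraries, with a summed level of 0.294 to 3.37 CPM. Of 8 mesenchymal markers 6 were measured and summed to 1311 to 1729 CPM, mostly Vim, and 6 of 8 immune markers summed to 6.37 to 24.5 CPM. Small RNAs took 0.249% to 0.451% of the summed CPM in untreated and 1 h libraries, 2.04% to 3.08% in control 6 h libraries and 1.34% to 1.59% in Ado KO 6 h libraries. Their part in the results at 6 h was not tested, beyond the other scalings given there. The depth of the libraries is not given, and each library had 617 to 1013 genes at the floor of the table.

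TNF at 6 h was the treatment with the most member calls. In control cells 2 members rose (Ccnd1 and Top2a) and 8 fell (Mcm2, Mcm7, Tk1, Ccne1, Ccnb2, Plk1, Aurka and Cdca8), at an adjusted p under 0.05 over all genes. In Ado KO cells 1 rose (Ccnd1) and 5 fell (Mcm7, Tk1, Ccnb2, Plk1 and Aurka). All changes were small, from 1.14-fold for Cdca8 to 1.43-fold for Ccne1. Over all genes tested, 7.74% were called higher and 10.3% lower in control cells, and 4.42% higher and 2.02% lower in Ado KO cells, so that in control cells the 8 of 47 members called lower stand beside a background of 10.3%. The members' median difference was -0.07 in control and -0.09 in Ado KO cells, beside -0.09 and -0.05 for all genes. In control cells 3 of 47 members were higher and 7 lower at 6 h without overlap with untreated, beside 8.64% and 11.5% of all genes. In Ado KO cells 1 was higher and 10 were lower without overlap, beside 6.69% and 7.15%. In bulk RNA, fewer cells in a cycle phase and less of an mRNA per cell cannot be told apart.

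**Figure D1:**
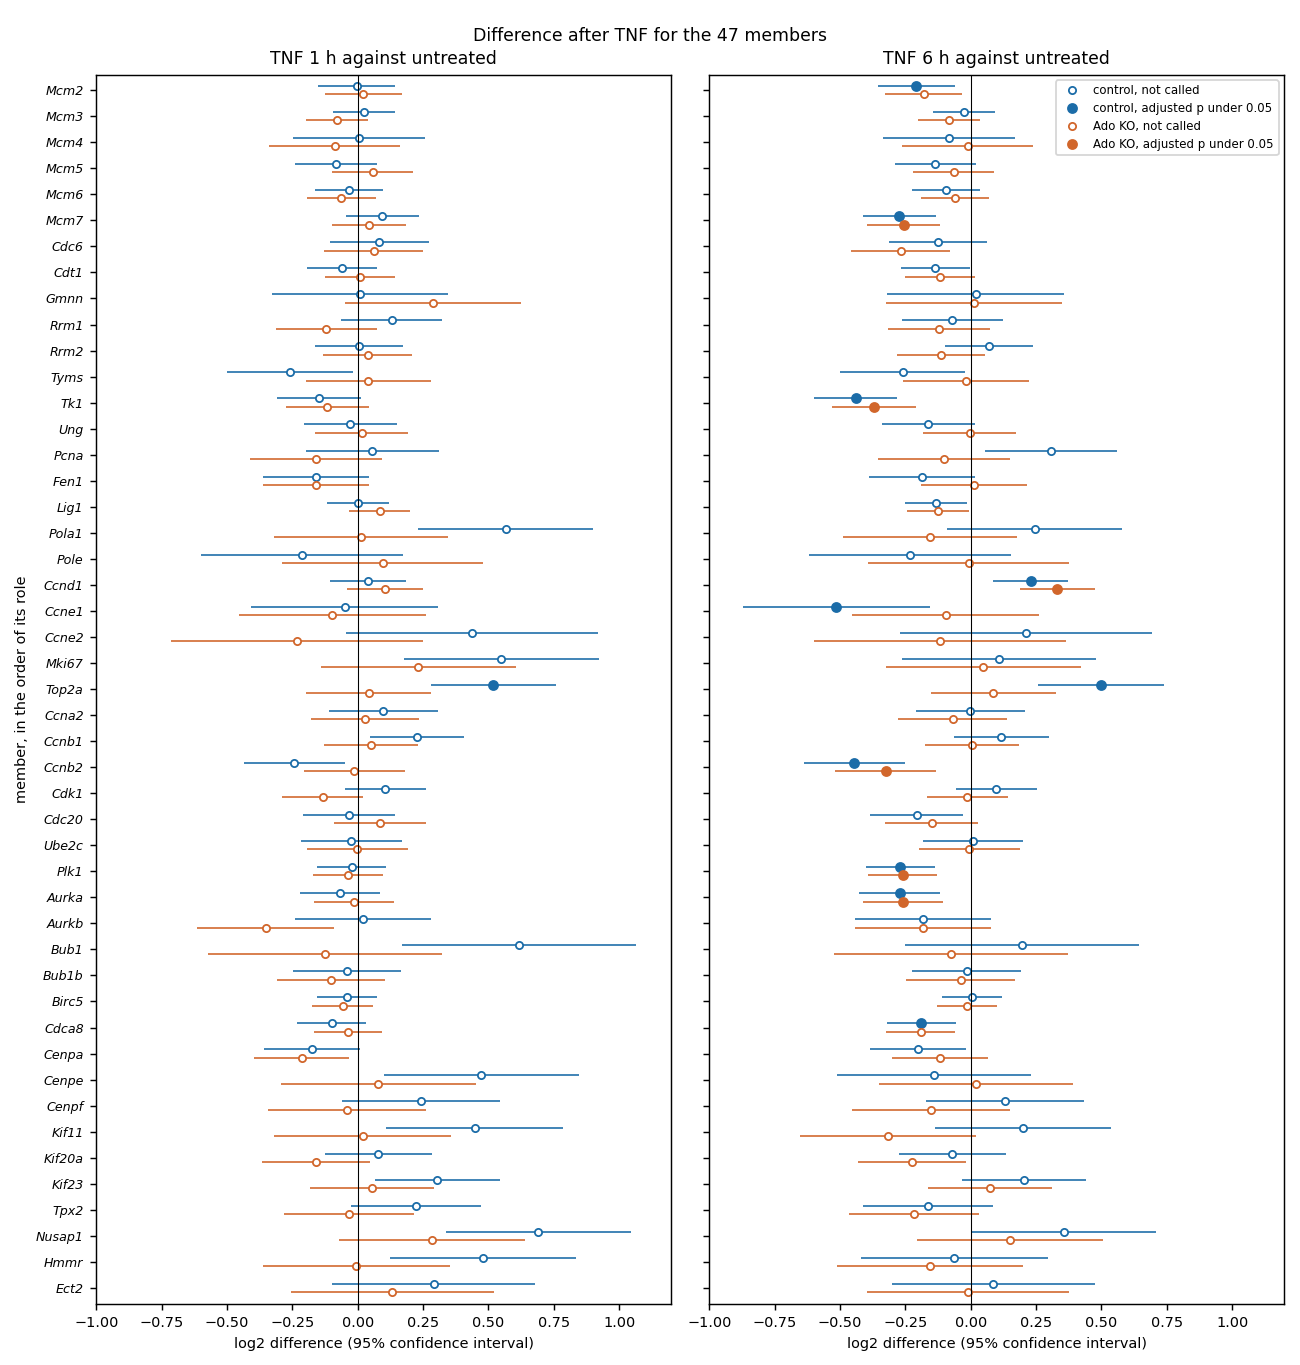
Log2 difference after TNF at 1 h (left) and 6 h (right) against untreated for each of the 47 members, ordered by role, in control (blue) and Ado KO (orange) cells, with 95% confidence intervals and filled points for calls at an adjusted p under 0.05. At 6 h Ccnd1 lies to the right and Mcm7, Tk1, Ccnb2, Plk1 and Aurka to the left in both genotypes, and at 1 h the 1 filled point is Top2a in control cells.

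Thymidine kinase, Tk1, which salvages thymidine for DNA synthesis, gave the smallest adjusted p among the falling members. In control cells Tk1 stood at 6.97, 7.22, 7.32 and 7.36 log2 CPM untreated and at 6.61, 6.74, 6.82 and 6.93 after 6 h of TNF. In Ado KO cells it stood at 7.12, 7.08, 7.19 and 7.07 untreated and at 6.70, 6.71, 6.78 and 6.80 after 6 h. Every 6 h library lay below every untreated library of its genotype. The difference was -0.44 ± 0.08 in control cells (adjusted p 0.000119, 1.36-fold lower) and -0.37 ± 0.08 in Ado KO cells (adjusted p 0.00169, 1.29-fold lower). Tk1 stayed called in all 8 fits per genotype that left out 1 library. Its control call also held without either guide population, while its Ado KO call ended without guide population 1 (-0.34, adjusted p 0.191) or 2 (-0.40, adjusted p 0.0815). At 1 h the differences were -0.15 ± 0.08 and -0.12 ± 0.08, neither called.

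Of the 9 licensing genes, 2 fell in control cells and 1 in Ado KO cells at 6 h, beside 10.3% and 2.02% of all genes called lower. In each genotype 8 of the 9 had negative differences. Their median was -0.13 in control and -0.08 in Ado KO cells, beside -0.09 and -0.05 for all genes. Mcm7, a subunit of the replicative helicase, read 7.61, 7.67, 7.44 and 7.53 log2 CPM in untreated control libraries and 7.26, 7.28, 7.30 and 7.33 at 6 h. In Ado KO libraries Mcm7 read 7.56, 7.68, 7.64 and 7.72 untreated and 7.51, 7.37, 7.36 and 7.33 at 6 h. The groups did not overlap in either genotype, and the differences were -0.27 ± 0.07 (adjusted p 0.00585) and -0.26 ± 0.07 (adjusted p 0.0172). The control call held in all 8 fits without 1 library and ended without guide population 1 (-0.17, adjusted p 0.366). The Ado KO call ended without untreated 2-2 or without 6 h 1-2, 2-1 or 2-2, with adjusted p up to 0.0755 and differences from -0.29 to -0.23, and without either guide population (adjusted p 0.067 and 0.5). Mcm2, another helicase subunit, read 7.04, 7.07, 6.79 and 6.93 untreated and 6.70, 6.71, 6.81 and 6.77 at 6 h in control cells, where untreated 2-1 lay inside the 6 h range. Its fall of 0.21 ± 0.07 (adjusted p 0.0433) ended in 6 of the 8 fits that left out 1 library, all but those without untreated 2-1 or 6 h 2-1, with differences from -0.26 to -0.17 and adjusted p up to 0.147, and without guide population 1 (-0.07, adjusted p 0.789). Mcm2 in Ado KO cells differed by -0.18 ± 0.07, which was not called although the groups did not overlap (6.90 to 7.10 untreated, 6.77 to 6.88 at 6 h).

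The remaining licensing members named by rule were not called after TNF. Cdc6, which loads the helicase with Cdt1, read 5.42, 5.70, 5.48 and 5.49 log2 CPM in untreated Ado KO cells and 5.27, 5.24, 5.22 and 5.29 at 6 h. These groups did not overlap, and the difference of -0.27 ± 0.09 missed the threshold (adjusted p 0.088), beside -0.12 ± 0.09 in control cells. Cdt1 differed by -0.14 ± 0.07 and -0.12 ± 0.07 at 6 h, and Mcm5 by -0.13 ± 0.08 and -0.07 ± 0.08, in control and Ado KO cells. Among fork and nucleotide genes, Pcna, the sliding clamp, lay at 5.49, 5.78, 5.82 and 5.93 in untreated control cells and at 6.17, 6.10, 6.05 and 5.94 at 6 h. The Pcna groups did not overlap, yet the difference of 0.31 ± 0.12 was not called (adjusted p 0.0842), and in Ado KO cells it was -0.10 ± 0.12. Tyms, thymidylate synthase, differed by -0.26 ± 0.12 in control and -0.02 ± 0.12 in Ado KO cells, and Rrm2, the small subunit of ribonucleotide reductase, by 0.07 ± 0.08 and -0.11 ± 0.08.

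The cyclins of G1 and of the G1/S transition went different ways. Ccnd1, cyclin D1, which starts the inactivation of the retinoblastoma protein, read 9.72, 9.73, 9.46 and 9.50 log2 CPM in untreated control cells and 9.73, 9.80, 9.86 and 9.92 at 6 h. Ccnd1 in Ado KO cells read 9.59, 9.63, 9.29 and 9.45 untreated and 9.80, 9.83, 9.75 and 9.91 at 6 h. In both genotypes the lowest 6 h library lay above the highest untreated one, in control cells with both at 9.73 to 2 decimals. The rise was 0.23 ± 0.07 in control cells (adjusted p 0.0226, 1.17-fold) and 0.33 ± 0.07 in Ado KO cells (adjusted p 0.00173, 1.26-fold). In control cells the call rests on guide 2, since it ended when any of the guide 2 libraries (untreated 2-1 or 2-2, 6 h 2-1 or 2-2) was left out, with differences from 0.19 to 0.27 over the 8 fits and adjusted p up to 0.0856. Without guide population 2 the control difference was 0.05 (adjusted p 0.8), and the Ado KO call, which held in all 8 fits without 1 library, also ended without guide population 2 (0.20, adjusted p 0.382). Ccne1, cyclin E1, read 4.52, 4.06, 4.50 and 4.14 untreated and 4.30, 3.39, 3.39 and 4.09 at 6 h in control cells. The Ccne1 groups overlapped, and the fall was called at -0.51 ± 0.18 (adjusted p 0.0403). That call ended without untreated 1-1 or 2-1 or without 6 h 1-2 or 2-1, with differences from -0.69 to -0.38 and adjusted p up to 0.171, and without either guide population (adjusted p 0.144 and 0.268). Ccne1 in Ado KO cells differed by -0.09 ± 0.18, and Ccne2 differed by 0.21 ± 0.24 and -0.12 ± 0.24.

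Among mitotic cyclins and their partners, Ccnb2, a B-type cyclin, was the 1 member that fell, in both genotypes. Ccnb2 read 5.31, 5.17, 5.49 and 5.31 log2 CPM in untreated control cells and 4.93, 4.95, 4.75 and 4.87 at 6 h, and 5.14, 5.34, 5.02 and 5.19 against 4.85, 4.97, 4.69 and 4.89 in Ado KO cells. Neither pair of groups overlapped. The differences were -0.45 ± 0.10 (adjusted p 0.00114, 1.36-fold lower) and -0.32 ± 0.10 (adjusted p 0.0321, 1.25-fold lower). The control call held in all 8 fits without 1 library and ended without guide population 2 (-0.30, adjusted p 0.168). The Ado KO call ended without either guide population (adjusted p 0.356 and 0.291 without 1 and 2), and without untreated 1-1, 1-2 or 2-2 or without 6 h 1-1 or 2-1 (-0.37 to -0.27, adjusted p up to 0.141). The related cyclins and kinase were not called. Ccnb1 differed by 0.12 ± 0.09 and 0.00 ± 0.09, Ccna2 by -0.00 ± 0.10 and -0.07 ± 0.10, and Cdk1 by 0.10 ± 0.08 and -0.01 ± 0.08, in control and Ado KO cells. Cdc20, which activates the anaphase-promoting complex, read 7.38, 7.50, 7.26 and 7.30 untreated and 7.12, 7.17, 7.17 and 7.15 at 6 h in control cells, groups that did not overlap, at -0.21 ± 0.09 (adjusted p 0.0972), and -0.15 ± 0.09 in Ado KO cells.

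Of the 7 mitotic kinase and checkpoint genes, 3 fell in control and 2 in Ado KO cells at 6 h, beside 10.3% and 2.02% of all genes called lower. Plk1, a kinase of mitotic entry and exit, read 9.23, 9.26, 9.17 and 9.11 log2 CPM in untreated control cells and 8.84, 8.96, 8.97 and 8.94 at 6 h, and 9.19, 9.22, 9.09 and 9.26 against 8.89, 9.04, 8.78 and 9.01 in Ado KO cells. The groups did not overlap in either genotype, and the differences were -0.27 ± 0.07 (adjusted p 0.0042) and -0.26 ± 0.07 (adjusted p 0.00957). The control call held in all 8 fits without 1 library and ended without guide population 1 (-0.19, adjusted p 0.274). The Ado KO call ended without untreated 2-2 or 6 h 2-1 (-0.29 to -0.21, adjusted p up to 0.072) and without either guide population (adjusted p 0.136 and 0.184). Aurka, the centrosomal Aurora kinase, read 6.73, 6.69, 6.70 and 6.51 untreated and 6.26, 6.42, 6.52 and 6.34 at 6 h in control cells, with an overlap of untreated 2-2 and 6 h 2-1. Its Ado KO values were 6.62, 6.65, 6.64 and 6.65 untreated and 6.44, 6.37, 6.32 and 6.40 at 6 h, with no overlap. Aurka fell by 0.27 ± 0.08 in control (adjusted p 0.0117) and by 0.26 ± 0.08 in Ado KO cells (adjusted p 0.0315). The control call of Aurka ended without 6 h 1-1 (adjusted p 0.0589), and its Ado KO call ended in every fit without 1 library except that without 6 h 1-1 (-0.28 to -0.24, adjusted p up to 0.102). Cdca8, borealin of the chromosomal passenger complex, read 7.53, 7.61, 7.59 and 7.57 untreated and 7.30, 7.36, 7.43 and 7.46 at 6 h in control cells, with no overlap, at -0.19 ± 0.06 (adjusted p 0.0409). That call ended in 7 of 8 fits without 1 library, all but that without 6 h 2-2 (-0.21 to -0.16, adjusted p up to 0.134), and in Ado KO cells the difference was -0.19 ± 0.06 (adjusted p 0.0769). Aurka also lost its control call without guide population 1 (-0.17, adjusted p 0.378) and its Ado KO call without either guide population (adjusted p 0.298 and 0.418), and Cdca8 lost its control call without either (adjusted p 0.473 and 0.119). Birc5, survivin of the same complex, differed by 0.00 ± 0.06 and -0.01 ± 0.06.

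No member of the centromere or of the motor, spindle and cytokinesis group was called at 6 h. The 3 centromere genes differed by -0.20 to 0.13 in control cells and by -0.15 to 0.02 in Ado KO cells. The 7 spindle genes ranged from -0.16 to 0.36 and from -0.32 to 0.15, with Kif11, the bipolar spindle motor, at 0.20 ± 0.17 and -0.32 ± 0.17.

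Top2a, topoisomerase II alpha, which untangles sister chromatids, was the 1 member called at both times in control cells, with no call in Ado KO cells. Its untreated control values were 8.15, 8.27, 8.30 and 8.01 log2 CPM, the 1 h values 8.66, 9.15, 8.53 and 8.47, and the 6 h values 8.88, 8.70, 8.53 and 8.61. Every TNF library of control cells lay above every untreated one. Top2a in Ado KO cells read 8.21, 8.00, 8.30 and 8.23 untreated, 7.90, 8.30, 8.11 and 8.60 at 1 h, and 8.24, 8.43, 8.25 and 8.16 at 6 h, so that the groups overlapped. The control rise was 0.52 ± 0.12 at 1 h (adjusted p 0.0339, 1.43-fold) and 0.50 ± 0.12 at 6 h (adjusted p 0.00309, 1.41-fold), against 0.04 ± 0.12 and 0.09 ± 0.12 in Ado KO cells. The test of the difference between the genotypes' responses was not passed at 1 h (-0.48 ± 0.17, adjusted p 0.441) or at 6 h (-0.41 ± 0.17, adjusted p 0.624). At 1 h the call ended without untreated 1-1, 1-2 or 2-2 or without 1 h 1-2 (0.37 to 0.59, adjusted p up to 0.153), and without guide population 1 (0.34, adjusted p 0.763). At 6 h it held in all 8 fits without 1 library and ended without guide population 1 (0.42, adjusted p 0.0963). Mki67, the other proliferation marker, differed by 0.55 ± 0.18 at 1 h in control cells (adjusted p 0.164) and 0.11 ± 0.18 at 6 h.

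**Figure D2:**
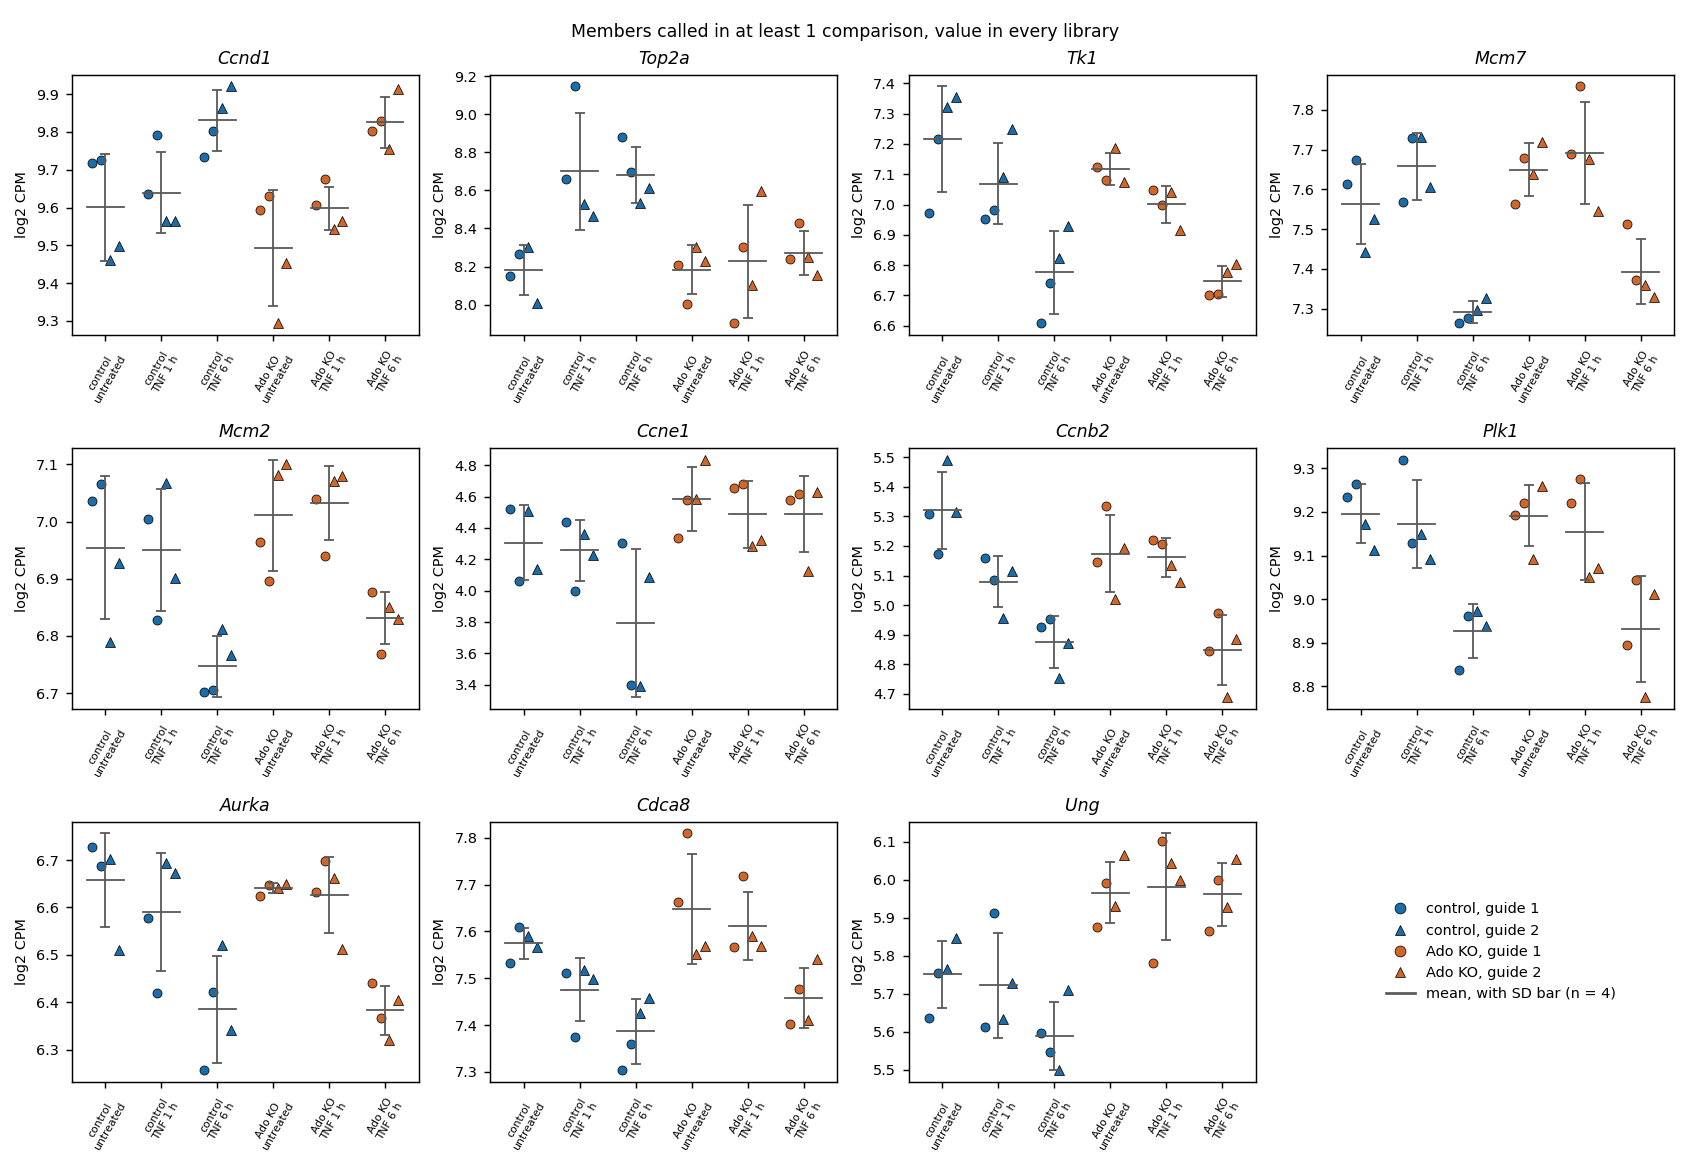
Log2 CPM of the 11 members called in at least 1 comparison in each of the 24 libraries, with circles for guide 1, triangles for guide 2, blue for control, orange for Ado KO, and bars for the mean and SD of 4 libraries. Ccnd1 is highest and Tk1, Ccnb2 and Plk1 are lowest in the 6 h groups of both genotypes, Top2a is raised in the control TNF groups, and the Ung values of Ado KO lie above those of control cells at 6 h.

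At 1 h of TNF, Top2a was the 1 member called in control cells (1 of 47, beside 0.332% of all genes called higher and 0.0603% lower), and limma called 0 members in Ado KO cells (0.241% of all genes higher, 0.0151% lower). At an unadjusted p under 0.05, 10 members were higher and 2 lower in control cells, and 0 higher and 2 lower in Ado KO cells. Of all 13272 genes, 1032 were higher and 844 lower at that p in control cells, and 500 and 463 in Ado KO cells. Control values did not overlap between 1 h and untreated for 5 members that were higher (Pola1, Top2a, Ccnb1, Kif11 and Nusap1) and 3 that were lower (Tyms, Ccnb2 and Cdca8), beside 3.16% and 2.98% of all genes. Ado KO values at 1 h did not overlap for 0 higher and 4 lower members (Tk1, Aurkb, Cenpa and Kif20a), beside 2.11% and 1.55%. Nusap1, a spindle microtubule protein named after its values were seen, read 4.12, 4.26, 4.27 and 3.94 untreated and 5.00, 5.33, 4.60 and 4.42 at 1 h, at 0.69 ± 0.17 (adjusted p 0.068). For 36 of the 47 members in control cells and 42 in Ado KO cells the 95% confidence interval of the 1 h difference lay within a 1.5-fold change in either direction, and for 39 and 45 at 6 h.

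The 1 h differences in control cells were ordered by the base composition of the transcripts. Over the 47 members, the GC content of the longest coding transcript (GENCODE M21) and the difference had a Pearson r of -0.714 and a Spearman rho of -0.696, given as a description since the members share libraries. For 10675 protein-coding genes r was -0.324, and for the members in Ado KO cells it was -0.027. The order was not limited to 1 h, since at 6 h the members' r was -0.635 in control and -0.186 in Ado KO cells. For Ado KO against control it was -0.218 untreated, 0.61 at 1 h and 0.452 at 6 h. Transcript length (log2 of bases) and the 1 h difference in control cells had an r of 0.535. The 12 members with a GC content under 45%, a limit chosen after the values were seen, were Rrm1, Pola1, Ccne2, Top2a, Ccnb1, Bub1, Cenpe, Cenpf, Kif11, Nusap1, Hmmr and Ect2. In control cells at 1 h all 12 had positive differences with a median of 0.46, against a median of -0.02 and 16 positive of the other 35, while other low-GC genes had a median of 0.19 and other genes at or above 45% one of -0.07. In Ado KO cells the medians were 0.02 and -0.01.

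Single libraries took part in that order. The mean of the 12 low-GC members was 5.62 log2 CPM in control 1 h library 1-2, against 5.02 to 5.19 in the other 3 libraries of the group, and the mitochondrial share was 3.58% there against 2.55% to 2.66%. Ado KO 1 h library 2-2 likewise had a low-GC mean of 5.21 against 4.63 to 4.87 and a mitochondrial share of 2.48% against 1.84% to 1.91%. Without control library 1-2 the median of the 12 members was 0.31, all 12 stayed positive, r was -0.657 and limma called 0 members. The Ado KO values depended on 1 library as well. Without Ado KO 1 h library 2-2 the low-GC median was -0.07 with 2 of 12 positive and an r of 0.315, and without untreated Ado KO library 1-2 it was -0.06 with 3 of 12 positive and an r of 0.143. The part of RNA quality or of library preparation in this order was not tested.

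**Figure D3:**
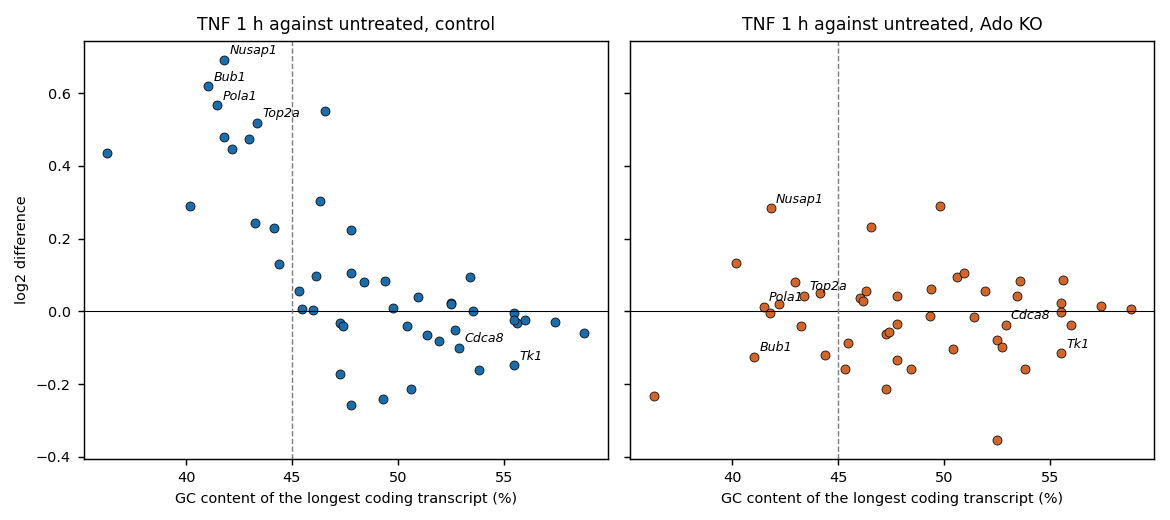
Log2 difference at 1 h of TNF against the GC content of the longest coding transcript, for the 47 members in control (left) and Ado KO (right) cells, with a dashed line at 45% GC. In control cells all 12 members left of the line lie above 0, and in Ado KO cells 7 of the 12 do.

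A fit with the dependence on GC content removed in each library, over 10675 protein-coding genes, was added after the data were seen. The removal had no term for treatment, so any part of a TNF response that goes with GC content was removed too. At 6 h the fit called 2 members higher (Ccnd1 at 0.35 ± 0.07 and Top2a at 0.41 ± 0.09) and 2 lower (Tk1 at -0.26 ± 0.07 and Ccnb2 at -0.35 ± 0.09) in control cells, in place of 2 and 8. Ccnd1 in Ado KO cells rose by 0.37 ± 0.07 and Tk1 fell by 0.30 ± 0.07 in that fit, in place of 1 higher and 5 lower. Of all 10675 genes that fit called 729 higher and 379 lower in control cells, and 434 and 173 in Ado KO cells. The main fit called 1027 and 1365 of 13272 genes in control cells, and 587 and 268 in Ado KO cells. Scaling to protein-coding genes gave other splits in control cells at 6 h, namely 2 higher and 5 lower when these genes were normalised again without histones, and 3 and 5 when their medians were aligned. The same scalings in Ado KO cells gave 1 higher and 5 lower, and 1 and 3. Among all genes these scalings called 677 higher and 704 lower of 10705, and 1157 and 751 of 13272, in control cells. In Ado KO cells they called 375 and 204, and 620 and 219. So the rise of Ccnd1 and the fall of Tk1 at 6 h were called in both genotypes under each of these 3 scalings. The rise of Top2a and the fall of Ccnb2 were called under each of them in control cells. The falls of Mcm7, Plk1 and Aurka were not called in the fit with GC content removed. There the control differences were -0.12 ± 0.07 for Mcm7, -0.09 ± 0.06 for Plk1 and -0.14 ± 0.07 for Aurka, against -0.27 for each without that step. In Ado KO cells they stayed nearer to their values, at -0.21 ± 0.07 for Mcm7 (adjusted p 0.0708), -0.18 ± 0.06 for Plk1 (adjusted p 0.103), -0.22 ± 0.07 for Aurka (adjusted p 0.0562) and -0.29 ± 0.09 for Ccnb2 (adjusted p 0.0598).

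The mean over the members of each set gives the same data by library, with no test. For the 21 S phase members it was 5.88 ± 0.02 log2 CPM (SD, n = 4) in untreated, 5.89 ± 0.01 in 1 h and 5.77 ± 0.03 in 6 h control cells, and 5.95 ± 0.04, 5.94 ± 0.04 and 5.85 ± 0.02 in Ado KO cells. For the 25 G2/M members it was 6.13 ± 0.07, 6.32 ± 0.13 and 6.13 ± 0.09 in control cells and 6.16 ± 0.05, 6.14 ± 0.12 and 6.06 ± 0.08 in Ado KO cells. The S phase means at 6 h (5.75 to 5.81 in control, 5.82 to 5.87 in Ado KO cells) lay below the untreated ones (5.85 to 5.90 and 5.90 to 5.99) without overlap. Beside this drop, the median difference at 6 h was -0.09 over all genes and -0.10 over protein-coding genes in control cells, and -0.05 and -0.06 in Ado KO cells. With the protein-coding medians aligned, the S phase mean was 5.86 untreated and 5.81 at 6 h in control cells, and 5.95 and 5.87 in Ado KO cells. The G2/M means at 1 h in control cells (6.21 to 6.47) lay above the untreated ones (6.04 to 6.19), and this set holds 9 of the 12 low-GC members.

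**Figure D4:**
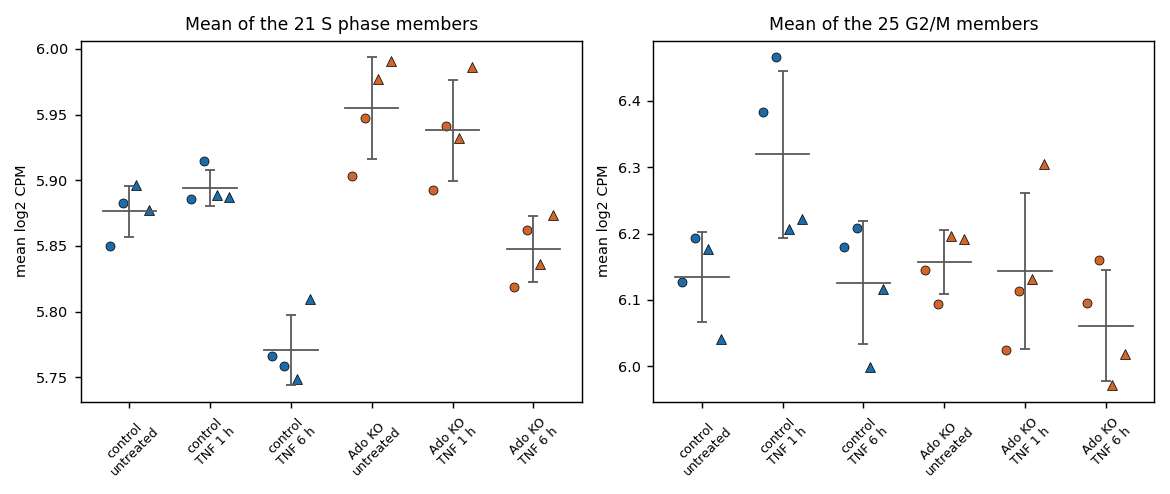
Mean log2 CPM of the 21 S phase members (left) and the 25 G2/M members (right) in each of the 24 libraries, with circles for guide 1, triangles for guide 2, blue for control, orange for Ado KO, and bars for the mean and SD of 4 libraries. The S phase means are lowest at 6 h in each genotype, and the G2/M means of control cells are highest at 1 h, at 6.21 to 6.47.

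Few members differed between the genotypes, and 2, 5 and 2 were higher in Ado KO cells without overlap and 0, 0 and 1 lower, in untreated, 1 h and 6 h cells. Over all genes those shares were 2.83%, 4.69% and 4.69% higher and 3.52%, 2.46% and 3.94% lower. In untreated cells limma called 0 of 47 members between Ado KO and control (0.0678% of all genes higher in Ado KO, 0.181% lower), with 2 higher and 0 lower at an unadjusted p under 0.05 (538 and 628 of all 13272 genes). At 1 h of TNF it called 0 (0.527% and 0.535% of all genes), with 5 higher and 7 lower unadjusted (1124 and 970 of all genes). At 6 h it called 1 member higher, Ung, and 0 lower (0.422% and 0.595%), with 4 and 1 unadjusted (888 and 624 of all genes). For 42, 35 and 38 members the confidence interval of the genotype difference lay within 1.5-fold at the 3 times.

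Ung, the uracil-DNA glycosylase that removes uracil from DNA, read 5.60, 5.55, 5.50 and 5.71 log2 CPM in control and 5.87, 6.00, 5.93 and 6.05 in Ado KO cells after 6 h. Untreated values were 5.64, 5.76, 5.77 and 5.85 in control and 5.88, 5.99, 5.93 and 6.07 in Ado KO cells, and 1 h values were 5.61, 5.91, 5.63 and 5.73 against 5.78, 6.10, 6.04 and 6.00. The genotypes did not overlap untreated or at 6 h, and overlapped at 1 h. The difference was 0.37 ± 0.09 at 6 h (adjusted p 0.0375, 1.30-fold), 0.22 ± 0.09 untreated (adjusted p 0.46) and 0.26 ± 0.09 at 1 h (adjusted p 0.153). The 6 h call ended without control 1-1, 1-2 or 2-1 or without Ado KO 1-2, 2-1 or 2-2 (0.34 to 0.41, adjusted p up to 0.145), and in the fit with GC content removed (0.35 ± 0.10, adjusted p 0.124) and under both protein-coding scalings, and without any 1 of the 4 guide populations (0.34 to 0.40, adjusted p up to 0.413). In the fit with GC content removed, Top2a was called 0.39 ± 0.09 lower in Ado KO cells at 6 h (log2 difference -0.39, adjusted p 0.0479) and Rrm2 0.39 ± 0.09 higher at 1 h (adjusted p 0.0298). Rrm2 also did not overlap between genotypes untreated (5.72 to 5.98 in control, 6.03 to 6.22 in Ado KO) or at 1 h (5.63 to 5.99 and 6.13 to 6.20), with differences of 0.28 ± 0.09 and 0.31 ± 0.09 that were not called (adjusted p 0.226 and 0.0686). Ccne1 stood 0.70 ± 0.18 higher in Ado KO cells at 6 h without a call (adjusted p 0.0598).

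The response to TNF was not called as different between the genotypes for any member. Limma called 0 of 47 interactions at 1 h (0% and 0% of all genes higher and lower), with 0 higher and 5 lower at an unadjusted p under 0.05 (628 and 676 of all 13272 genes). At 6 h it called 0 (0% higher and 0.347% lower over all genes), with 0 and 3 unadjusted (443 and 450 of all genes). The intervals of 30 members at 1 h and 33 at 6 h lay within 1.5-fold, so for the rest a difference of that size was not shown to be absent. For the members called at 6 h in both genotypes, the interaction was 0.10 ± 0.10 for Ccnd1, 0.07 ± 0.11 for Tk1, 0.02 ± 0.10 for Mcm7, 0.12 ± 0.13 for Ccnb2, 0.01 ± 0.09 for Plk1 and 0.01 ± 0.11 for Aurka.

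Other genes of the pathway came from 3 further lists, whose counts at 6 h stand beside 7.74% of all genes called higher and 10.3% lower in control cells and 4.42% and 2.02% in Ado KO cells. Of 48 other replication genes 2 rose and 8 fell at 6 h in control cells, led by Gins2 (-0.41 ± 0.09), Rpa2 (-0.34 ± 0.08), Chaf1b (-0.41 ± 0.11) and Orc4 (0.80 ± 0.22), and 0 were called in Ado KO cells. There 0 were higher and 8 lower at an unadjusted p under 0.05, beside 1091 and 1277 of all 13272 genes. Of 52 other mitosis genes 2 rose and 8 fell in control cells at 6 h, and 0 rose and 3 fell in Ado KO cells. Cdc25b, a phosphatase that activates CDK1, fell by 0.48 ± 0.08 and by 0.39 ± 0.08, and Hmgb2, a chromatin protein, rose in control cells by 0.68 ± 0.15 at 1 h and 0.70 ± 0.15 at 6 h. Of the 49 listed cell cycle regulators 47 were measured, and 7 rose and 8 fell in control and 4 rose and 1 fell in Ado KO cells at 6 h. Cdkn1a rose by 1.31 ± 0.14 at 6 h in control cells and by 0.68 ± 0.14 at 1 h and 1.38 ± 0.14 at 6 h in Ado KO cells. Btg2, an antiproliferative gene, rose by 2.28 ± 0.26 and 2.80 ± 0.26 in control cells and by 2.50 ± 0.26 and 2.69 ± 0.26 in Ado KO cells at 1 h and 6 h. Cdkn1b, which encodes the inhibitor p27, fell by 1.11 ± 0.21 and Cdk6, a partner of cyclin D1, rose by 0.68 ± 0.14 at 6 h in control cells. Interactions of genotype and TNF were called for 0% of all genes at 1 h, and for 0% higher and 0.347% lower at 6 h. In these 3 lists 0 genes were called for the interaction of genotype and TNF at 1 h or at 6 h. A call in 1 genotype alone is thus not a called difference in response. At 1 h the lists held 0, 1 (Hmgb2) and 1 (Btg2) calls in control cells and 0, 0 and 2 (Cdkn1a and Btg2) in Ado KO cells, all rises. The shares of all genes at 1 h were 0.332% higher and 0.0603% lower in control cells, and 0.241% and 0.0151% in Ado KO cells. Between genotypes the 1 call of these lists was Pold1, a catalytic subunit of DNA polymerase delta, which was 0.47 ± 0.11 higher in Ado KO cells at 1 h (adjusted p 0.0245). Between genotypes 0.0678%, 0.527% and 0.422% of all genes were called higher in untreated, 1 h and 6 h cells, and 0.181%, 0.535% and 0.595% lower.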

How the data were processed

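Total RNA of 24 MC38 libraries was prepared with a 3' mRNA kit, per the labels' protocols. Tools listed in the submitters' processing notes are HISAT2, Subread's featureCounts, cutadapt 1.7, FastQC and limma, with builds GRCm38 and mm10. The deposited table holds log2 CPM values per gene, normalised by the authors. The unit was inferred from the values, which sum to 998900 to 999014 CPM per library and share a lowest (-3.349) and a highest value (17.04), as after quantile normalisation. It had 0 identical libraries.

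Values were used as deposited. Limma 3.58.1 (R 4.3.3, statmod 1.5.0) fitted 6 group means over the 13272 genes with 0 or more in at least 4 libraries, with 4 guide populations as random blocks (correlation 0.0485) and a variance trend. Calls needed a two-sided p under 0.05 after Benjamini-Hochberg adjustment across every gene tested, in each of 9 comparisons, including the interactions of genotype and TNF. The fit was also run on simulated data for control cells at 6 h only. Those data were drawn without guide effects, so they did not check the random blocks. For control guide 2 at 1 h, titles and column names give opposite replicate numbers, and those of the titles are used. Members and lists were chosen with earlier results of these data known. Members called in any comparison and 20 fixed anchors are given in full, and up to 4 called genes per further list. GC content came from GENCODE M21 (GRCm38) and promoters from RefSeq (GRCm38.p6). Python 3.11.15 with matplotlib 3.10.9 made the figures.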

Additional observations from a re-analysis of the deposited data

Results flagged for a closer look

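In 4 of 162 sets of 4 libraries (25 members and the 2 set means in 6 groups) 1 library stood far from the other 3, by the 95% limit of Dixon's gap test. Chance flags about 1 in 20 such sets. Ccne1 read 4.13 log2 CPM in Ado KO 6 h library 2-1, against 4.58 to 4.63 in the others. Cdca8 read 7.38 in control 1 h library 1-2, against 7.50 to 7.52, and 7.72 in Ado KO 1 h library 1-2, against 7.57 to 7.59. The S phase mean was 5.91 in control 1 h library 1-2, against 5.89 in the others.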

How the results depend on the processing

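The number of members called kept within 1.5 times its value in all 9 comparisons with no filter on low values or a stricter one (2 or more), and in both interactions (0 members) under every setting run. In control cells at 1 h (1 member) it was 0 with no variance trend, with only the groups compared, with GC content removed and without guide population 1, 3 with guide populations as fixed terms and 4 without guide population 2. In control cells at 6 h (10) it was 6 with no variance trend, 4 with GC content removed, 3 without guide population 1 and 6 without guide population 2. In Ado KO cells at 6 h (6) it was 2 with GC content removed, 1 without guide population 1 and 0 without guide population 2. Between genotypes, untreated (0) it was 1 without control guide population 2. At 1 h (0) it was 1 with a pseudocount of 1, with no guide block, with the replicate block and with GC content removed, 5 with fixed guide terms and 6 without control guide population 2. At 6 h (1) it was 2 with a pseudocount of 1, with no guide block, with the replicate block and with only the groups compared, 3 with fixed guide terms, and 0 with no variance trend, with either protein-coding scaling, and without control guide population 1 or either Ado KO guide population. The number of genes called over all genes tested moved as well. In control cells at 1 h it was 52 in the main fit and 22 to 53 in the settings with 0 members. It was 216 there with fixed guide terms and 260 without guide population 2. In control cells at 6 h it was 2392, and 2021, 1108, 684 and 1575 in the settings named, in that order. In Ado KO cells at 6 h it was 855, and then 607, 369 and 417. Between genotypes at 1 h it was 141, and then 138, 199, 194, 67, 609 and 956. Fixed guide terms set the genotype difference against the spread within guide populations only, which leaves out how far the guides differ. Without 1 library the member counts ranged from 0 to 2 and 7 to 8 in control cells and 0 to 0 and 2 to 5 in Ado KO cells at 1 h and 6 h, and from 0 to 0, 0 to 3 and 0 to 2 between genotypes. Of 380 refits of the 18 single calls, 269 stayed called, 111 did not and 0 turned direction. The causes were not tested, and the fits that left some libraries out also rested on fewer libraries. With the protein-coding medians aligned, the S phase mean was 5.88 at 1 h and 5.81 at 6 h in control cells. Replicate numbers did not pair the libraries (correlations of deviations -0.158 to 0.054), and with the replicate block the other member counts stayed within 1.5 times. The table holds no tag counts, so counting error of low members such as Ccne2 and Pole cannot be given.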

Other observations

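The 7 spindle and cytokinesis members, noted after the values were seen, had differences of 1 sign in several comparisons, although limma called 0 of them. At 1 h of TNF all 7 were positive in control cells (0.08 to 0.69). Between Ado KO and control cells all 7 were negative at 1 h (-0.55 to -0.16) and at 6 h (-0.29 to -0.02). These comparisons share libraries. Of all 47 members 28 were positive in the first, and 27 and 22 were negative in the others. The median over all genes was -0.03, 0.01 and 0.02. Of the 7, Kif11, Nusap1, Hmmr and Ect2 are among the 12 members with a GC content under 45%, all 12 of which had the same signs at 1 h in both comparisons, and control 1 h library 1-2, with a mitochondrial share of 3.58% against 2.55% to 2.66%, had the highest mean of those 12. The part of RNA quality in the signs was not tested. The 7 kinase and checkpoint members were all negative in Ado KO cells at 1 h (-0.35 to -0.01) and at 6 h (-0.26 to -0.01). Of all 47 members 24 were negative at 1 h and 38 at 6 h in these cells, so the sign at 6 h was shared by most members. Aurkb, the Aurora kinase of the chromosomal passenger complex, was chosen after its values were seen and read 4.76, 4.78, 4.63 and 4.79 log2 CPM in untreated Ado KO cells and 4.52, 3.92, 4.51 and 4.60 at 1 h, with no overlap and no call (-0.35 ± 0.13, adjusted p 0.472), beside 0.02 ± 0.13 in control cells.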
